A study of Mus musculus with 9 samples.

Results

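Fatty acid synthesis and oxidation were followed through 41 genes, taken by symbol from a list of members of both pathways, out of the 24346 genes measured in every sample. Synthesis was represented by 13 of them, the enzymes that make, elongate and desaturate fatty acids or supply their carbon and NADPH, and oxidation by 28, the carnitine shuttle, the mitochondrial and peroxisomal enzymes of beta-oxidation, acyl-CoA thioesterases and 3 regulators. Of these, 36 reached an FPKM (fragments mapped to a gene, scaled by its length and by the depth of the sample) of 1 in at least 3 of the 9 samples and were tested, 11 of synthesis and 25 of oxidation. The same filter kept 10686 of all genes.

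The study sorted macrophages from the lungs of female C57BL/6 mice at 10 postnatal weeks and sequenced their RNA, with 3 samples in each of 3 populations. Ctrl-AM were alveolar macrophages (AMs) of mice given vehicle in place of cancer cells. Tumor-AM were AMs of mice whose left lung had been inoculated with Lewis lung carcinoma (LLC) cells, a mouse carcinoma line of the same strain that here carried the fluorescent protein tdTomato. Tumor-macrophage were the tumor-associated macrophages (TAMs) of such mice. All 3 populations were gated as CD45+ autofluorescent cells, AMs then as Siglec-F+ and TAMs as Siglec-F-, F4/80+ and CD11b+, so TAMs without autofluorescence were not sampled and the tumors all came from 1 injected line. No other treatment or allele is given for any group, the labels do not say which samples came from the same mouse, and p-values measure the spread between these samples.

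Cells build fatty acids in the cytosol. ATP citrate lyase and acetyl-CoA synthetase provide acetyl-CoA, acetyl-CoA carboxylase turns it into malonyl-CoA, and fatty acid synthase assembles palmitate, which elongases and desaturases of the endoplasmic reticulum then lengthen and make unsaturated. Fatty acids are broken down in mitochondria, which long chains enter as carnitine esters, and in peroxisomes, which take the longest chains. AMs take up and degrade the lipid-rich surfactant of the air spaces and depend on the lipid-sensing receptor PPAR-gamma, so genes of lipid handling are a prominent part of their normal expression.

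Depth was similar in all samples, at an estimated 10200000 to 12800000 reads, so that 1 FPKM on a transcript of 1 kb stood for 10.2 to 12.8 reads. A list of AM marker genes summed to 24559 to 30214 FPKM over the Ctrl-AM samples, 21644 to 38651 over the Tumor-AM samples but 259 to 587 in Tumor-macrophage, and a list of TAM marker genes to 6.58 to 8.35, 11.7 to 14.3 and 149 to 193 FPKM. Both sums therefore ran as the labels say, but Chil3 alone averaged 25739, 26233 and 236 FPKM in the groups, so the AM sum mostly follows that gene. All listed AM markers were lower in every Tumor-macrophage sample than in any AM sample. The gap was smallest for Mrc1 (60.7 to 77.2 FPKM against 123 to 163 in Tumor-AM) and Siglec1 (15.4 to 19.3 against 39 to 41.5). Marco ranged from 60.2 to 329 FPKM within Tumor-AM, and Siglecf, also listed, encodes a sorting marker. Among other cell types of the lung, summed markers of type II pneumocytes, which make surfactant lipids, overlapped between the groups (92.3 to 134, 74.7 to 132 and 73.9 to 127 FPKM). Single genes of that list differed, with Etv5 higher in Tumor-macrophage (21.2 to 27.9 FPKM against 0.631 to 1.48 in the AM groups) and Sftpb lower (0.0699 to 0.374 against 0.376 to 0.736). Adipocyte markers summed to at most 1.11 FPKM in any sample, with all of them at 0 in Tumor-macrophage. Neutrophil markers stood at 112 to 132, 110.2 to 165 and 91 to 139 FPKM, and endothelial cell markers at 9.34 to 9.63, 5.28 to 8.9 and 5.23 to 9.03. Summed fibroblast markers were higher in Tumor-AM (12.8 to 85.3 FPKM, the highest in replicate 3) than in Ctrl-AM (3.72 to 6.7) and stood at 9.84 to 17.1 in Tumor-macrophage. Lum, Dcn and Col3a1 carried that difference, while Col1a1, Col1a2 and Pdgfra overlapped between the AM groups. B cell markers stood at 12.7 to 16.8, 3.15 to 7.49 and 31.5 to 58.2 FPKM and dendritic cell markers at 10.7 to 11.6, 6.48 to 12.9 and 18 to 39.5 FPKM. T or NK cell markers stood at 2.3 to 4.44, 2.91 to 7.32 and 6.89 to 15.9 FPKM, and eosinophil markers reached at most 0.215 FPKM in the AM groups and 0.718 to 1.35 in Tumor-macrophage. Their part in the differences given below was not tested. In such bulk samples a smaller share of cells expressing a gene and less RNA per cell cannot be told apart.

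The first comparison asked how AMs differed between tumor-bearing and control lungs. In Tumor-AM, 5 of the 11 tested synthesis genes were higher than in Ctrl-AM (Fads1, Fads2, Fasn, Scd2 and Acly) and 0 were lower, whereas 0 of the 25 tested oxidation genes were higher and 5 were lower (Acaa1b, Acot1, Ehhadh, Acadm and Eci2). Fads2 was below 1 FPKM in every Ctrl-AM sample and passed the filter only through the tumor-bearing groups. It could therefore be called only as higher. Calls were made with limma across all genes at a Benjamini-Hochberg adjusted p under 0.05, and in this comparison 7.11% of all genes tested were higher and 3.18% were lower. The median difference was 0.37 over the tested synthesis genes and -0.09 over the tested oxidation genes, against 0.01 over all genes, each in units of log2(FPKM + 1). At an unadjusted p under 0.05, 7 synthesis genes were higher and 0 lower, and 0 oxidation genes were higher and 7 lower. Summed over all members, synthesis genes reached 286 to 303 FPKM in Ctrl-AM against 320.0 to 352 in Tumor-AM, and oxidation genes 1915 to 1922 and 1681 to 1692, without overlap in either arm. Sums rescaled to TPM, an alternative chosen after seeing the data, overlapped for synthesis (434 to 476 against 441 to 481) but not for oxidation (2898 to 3017 against 2306 to 2435), and without Acaa1b the oxidation genes summed to 1751 to 1757 against 1614 to 1633 FPKM.

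These counts were small and moved with single samples. Leaving out Ctrl-AM 1, 2 or 3, Tumor-AM 1, 2 or 3 or Tumor-macrophage 3 left 2, 1, 3, 1, 1, 3 and 3 synthesis genes, and leaving out Ctrl-AM 1, 2 or 3 or Tumor-AM 1 or 3 left 2, 3, 2, 3 and 3 oxidation genes. Tumor-AM 3, with the highest fibroblast marker sum, was among the samples whose absence lowered both counts, as were Ctrl-AM 1, 2 and 3 and Tumor-AM 1. The calls over all genes, 760 higher and 340 lower, fell too. Leaving out Ctrl-AM 1, 2 or 3 left 406 and 132, 518 and 172 and 424 and 125. Without Tumor-AM 1, 2 or 3 they were 538 and 195, 603 and 242 and 479 and 195, and without Tumor-macrophage 3 they were 683 and 304. Fads1, Acaa1b and Acot1 passed the threshold in all 16 alternative fits. Of the other called genes, Eci2 and Ehhadh passed in 12, Acly and Acadm in 11, Fasn in 8, Fads2 in 6 and Scd2 in 5. Rescaling every sample to the same sum (TPM), which moved the median of all genes to -0.11, left 3 synthesis calls, Fads1 and Fads2 higher and Elovl5 lower, and raised the oxidation calls to 8, all lower.

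Of the 4 desaturases, 3 were higher in Tumor-AM. Fads1, a front-end desaturase in the making of arachidonic acid and other polyunsaturated fatty acids, measured 1.58, 3.16 and 2.48 FPKM in Ctrl-AM, then 5.64, 6.6 and 6.49 in Tumor-AM and finally 38.6, 35 and 35 in Tumor-macrophage. The 3 populations did not overlap, and each step upward was larger than the spread within groups. The mean rose 2.59-fold from Ctrl-AM to Tumor-AM (difference 1.11 ± 0.16 in log2(FPKM + 1), SE, limma adjusted p = 0.00231). Fads2, which acts on the same pathway before Fads1, measured 0.564, 0.0549 and 0.439 FPKM in Ctrl-AM, then 1.06, 1.35 and 1.12 in Tumor-AM and finally 1.52, 2.56 and 2.09 in Tumor-macrophage. Its groups were ordered as those of Fads1 were, but at levels near the filter (0.71 ± 0.18, limma adjusted p = 0.0353). The 2 genes are neighbours in the GENCODE annotation of GRCm38, Fads1 at chr19:10182888-10196877 on the plus strand and Fads2 at chr19:10062765-10101746 on the minus strand.

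Scd1 and Scd2 both place a double bond in saturated fatty acids. Scd2 measured 5.7, 6.9 and 5.39 FPKM in Ctrl-AM against 9.71, 11.2 and 7.18 in Tumor-AM, 1.56-fold higher on average (0.55 ± 0.15, limma adjusted p = 0.0441). Scd1 measured 2.94, 4.52 and 2.28 FPKM in Ctrl-AM against 2.48, 1.88 and 1.89 in Tumor-AM, and these ranges overlapped (-0.43 ± 0.20, limma adjusted p = 0.219). The ratio of Scd2 to Scd1 was 1.53 to 2.36 in the Ctrl-AM samples and 3.8 to 5.95 in the Tumor-AM samples. Its difference of 1.22 on the log2 scale had an exact permutation p of 0.1, the smallest that 3 samples against 3 can give, and an adjusted p of 0.133 over 12 tests of ratios.

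Fasn and the gene of its carbon supply, Acly, were higher as well. Fasn, the fatty acid synthase, measured 2.7, 3.37 and 3.74 FPKM in Ctrl-AM against 5.42, 5.44 and 4.88 in Tumor-AM, a 1.6-fold increase without overlap (0.55 ± 0.13, limma adjusted p = 0.0268). Acly, the ATP citrate lyase, measured 53.9, 53.1 and 57.2 FPKM in Ctrl-AM against 74.6, 75.1 and 63.4 in Tumor-AM, a 1.3-fold increase (0.37 ± 0.08, limma adjusted p = 0.0189). Acaca, the cytosolic acetyl-CoA carboxylase, overlapped between the groups, with 1.46, 1.34 and 1.35 FPKM in Ctrl-AM against 1.25, 1.64 and 1.38 in Tumor-AM, a difference of 0.02 with a 95% interval from -0.25 to 0.30. Of the 75-base stretches of Acaca, 47.4% also occur in other annotated sequences, chiefly Gm5182, so its level may include their reads. Acss2, which makes acetyl-CoA from acetate, measured 2.11, 1.09 and 1.66 FPKM in Ctrl-AM against 2.34, 2.89 and 2.53 in Tumor-AM, without overlap but short of the threshold (limma adjusted p = 0.136).

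None of the 3 elongases passed the test in Tumor-AM. Elovl1, which lengthens saturated very long chains, was the most abundant synthesis gene per length, at 134, 129 and 143 FPKM in Ctrl-AM against 154, 163 and 163 in Tumor-AM (0.24 ± 0.07, limma adjusted p = 0.0529). Elovl5, which lengthens polyunsaturated chains, stood at 80.5, 80.7 and 81.8 FPKM in Ctrl-AM against 72.5, 76.8 and 64.5 in Tumor-AM (limma adjusted p = 0.219). Elovl6, which extends palmitate to stearate, ranged from 2.15 to 2.61 FPKM in Ctrl-AM and from 1.85 to 2.92 in Tumor-AM. Elovl1 and Elovl5 thus lay apart between the AM groups in opposite directions without either passing the threshold, and Elovl6 overlapped.

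**Figure D1:**
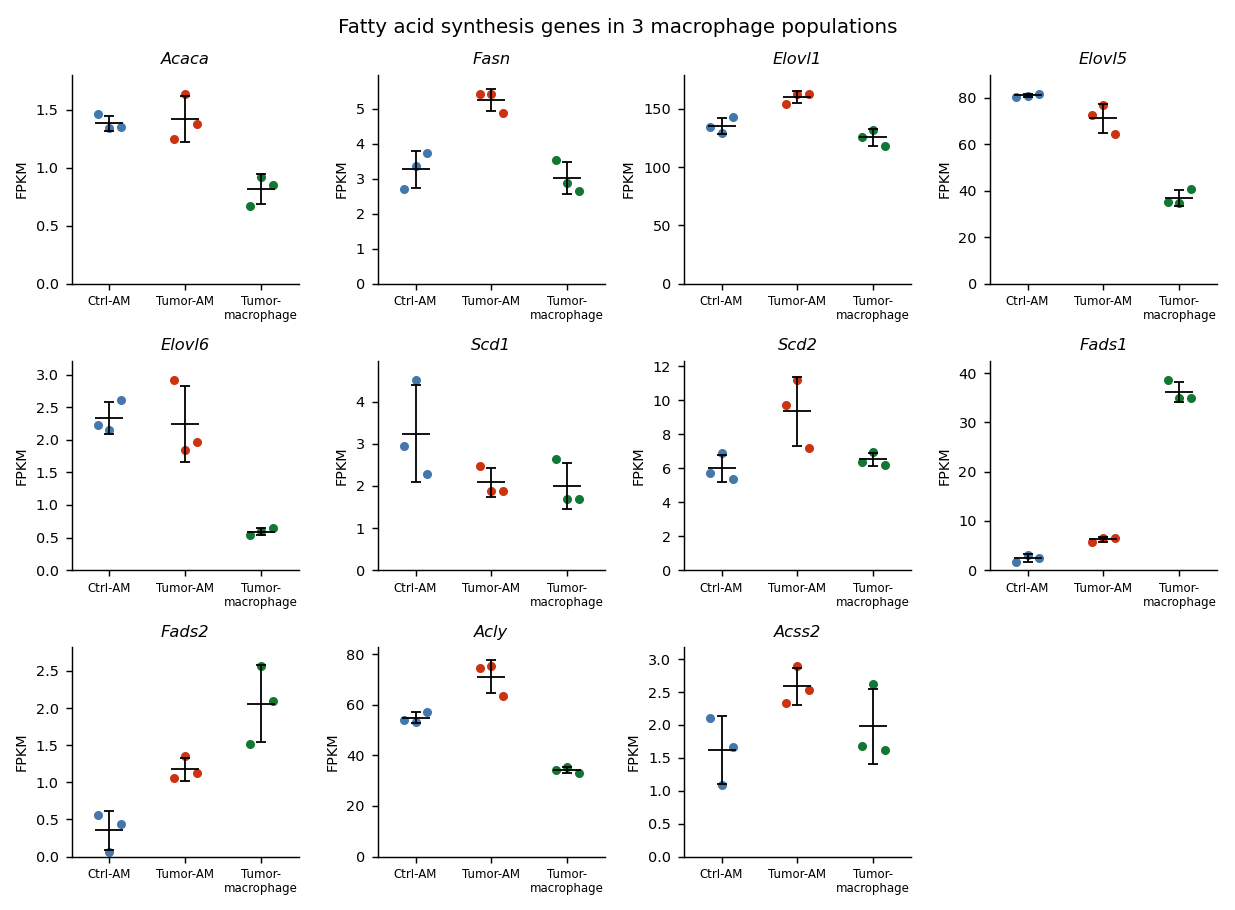
FPKM (linear axes from 0) of the 11 tested synthesis genes in each sample of Ctrl-AM, Tumor-AM and Tumor-macrophage, with bars for the mean and SD of 3 samples. Fasn, Scd2 and Acly were highest in Tumor-AM, Fads1 rose from 1.58 to 3.16 in Ctrl-AM to 35 to 38.6 in Tumor-macrophage, and Elovl5, Elovl6 and Acly were lowest in Tumor-macrophage.

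The oxidation genes that were lower in Tumor-AM were mostly outside the main mitochondrial spiral. The largest difference was in Acaa1b, a peroxisomal thiolase that splits acetyl-CoA off the shortened chain, with 169, 164 and 161 FPKM in Ctrl-AM, then 58.9, 72.7 and 53.9 in Tumor-AM and finally 0.184, 0 and 0 in Tumor-macrophage. Ctrl-AM lay 2.66-fold above Tumor-AM without overlap (-1.41 ± 0.12, limma adjusted p = 1.58e-04). Its paralog Acaa1a, which encodes the same activity, measured 98.8, 90.4 and 88.5 FPKM in Ctrl-AM, then 96.1, 88.8 and 98.7 in Tumor-AM and finally 55.6, 63.3 and 52.4 in Tumor-macrophage. The AM groups overlapped for Acaa1a (0.03, 95% interval from -0.16 to 0.22). The 2 genes therefore parted: Acaa1b stood at 1.71 to 1.82 times the level of Acaa1a in samples of Ctrl-AM but at 0.545 to 0.819 times in samples of Tumor-AM, a ratio chosen after its values were seen and not tested.

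The thioesterases Acot1, of the cytosol, and Acot2, of mitochondria, release free fatty acids from acyl-CoA and form a second such pair. Acot1 measured 29.6, 24.4 and 21.4 FPKM in Ctrl-AM, then 8.45, 12.5 and 7.35 in Tumor-AM and finally 0.599, 0.518 and 0.593 in Tumor-macrophage. The groups descended in that order without overlap, 2.67-fold from Ctrl-AM to Tumor-AM (-1.35 ± 0.18, limma adjusted p = 0.00151). Acot2 measured 9.08, 8.17 and 9.4 FPKM in Ctrl-AM against 5.43, 7.69 and 4.25 in Tumor-AM, lower in the same direction but short of the threshold (-0.57 ± 0.18, limma adjusted p = 0.0795). The ratio of Acot2 to Acot1 was 0.307 to 0.439 in Ctrl-AM and 0.579 to 0.642 in Tumor-AM, a log2 difference of 0.78 (exact permutation p = 0.1, the smallest possible, and adjusted p = 0.133).

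Both pairs share sequence, so how reads common to the paralogs were divided bears on these values. Of all stretches of 75 bases, the read length, 37.8% in the Acaa1b transcript and 27.3% in that of Acaa1a also occur in another gene, 460 of them in the partner, and the shares for Acot1 and Acot2 were 26.4% and 21.2%, with 434 in common. How the authors treated such reads is not given in the sources used here. Acaa1b was listed at 0 in 2 Tumor-macrophage samples in which Acaa1a stood at 63.3 and 52.4 FPKM.

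The promoters of these pairs are shown because their genes parted in expression while lying close together. Each window runs from 250 bases before to 50 after the annotated start (RefSeq, GRCm38.p6), 5′ to 3′ on the gene's strand, and capitals mark CCAAT and GGGCGG (the GC box) on either strand, where adjacent matches can share bases. Acaa1a is at chr9:119341044-119341343 on the plus strand and Acaa1b at chr9:119157044-119157343 on the minus strand.
Acaa1a: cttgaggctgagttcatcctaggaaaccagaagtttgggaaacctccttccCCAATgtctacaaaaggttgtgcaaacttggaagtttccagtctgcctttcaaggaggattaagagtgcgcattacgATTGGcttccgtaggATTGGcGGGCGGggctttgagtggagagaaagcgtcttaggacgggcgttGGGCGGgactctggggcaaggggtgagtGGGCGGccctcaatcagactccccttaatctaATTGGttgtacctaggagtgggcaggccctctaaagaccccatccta
Acaa1b: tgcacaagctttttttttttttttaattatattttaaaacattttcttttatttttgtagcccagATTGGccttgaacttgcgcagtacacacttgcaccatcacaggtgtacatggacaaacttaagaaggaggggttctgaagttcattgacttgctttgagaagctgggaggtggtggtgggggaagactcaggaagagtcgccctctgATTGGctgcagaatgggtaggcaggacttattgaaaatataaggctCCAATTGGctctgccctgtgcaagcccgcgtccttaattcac
Acot1 is at chr12:84009252-84009551 and Acot2 at chr12:83987611-83987910, both on the plus strand.
Acot1: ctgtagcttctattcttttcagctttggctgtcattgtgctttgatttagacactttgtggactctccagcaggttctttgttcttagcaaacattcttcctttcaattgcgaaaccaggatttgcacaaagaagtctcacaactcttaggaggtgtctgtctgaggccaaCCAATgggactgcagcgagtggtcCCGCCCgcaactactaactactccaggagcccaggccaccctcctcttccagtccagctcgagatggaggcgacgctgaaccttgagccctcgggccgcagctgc
Acot2: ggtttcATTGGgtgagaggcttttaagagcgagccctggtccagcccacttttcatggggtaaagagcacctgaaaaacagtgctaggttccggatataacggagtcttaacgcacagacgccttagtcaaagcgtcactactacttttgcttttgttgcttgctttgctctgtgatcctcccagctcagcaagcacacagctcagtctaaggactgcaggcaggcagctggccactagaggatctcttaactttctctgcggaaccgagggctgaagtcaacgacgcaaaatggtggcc
The windows of Acaa1a and Acaa1b matched at 167 of 262 aligned bases (63.7%) and those of Acot1 and Acot2 at 155 of 261 (59.4%). Both thiolase windows hold 4 CCAAT matches, but Acaa1a has 3 GC boxes and Acaa1b has 0. Acot1 has 1 of each, and Acot2 has 1 CCAAT match and 0 GC boxes. These are matches of letters, and no binding was measured.

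Ehhadh, the bifunctional enzyme of peroxisomal oxidation, was the third member that was more than 2-fold lower. It measured 11.2, 9.9 and 11.6 FPKM in Ctrl-AM against 4.66, 7.57 and 2.68 in Tumor-AM (-1.08 ± 0.24, limma adjusted p = 0.0214). The Tumor-AM samples were widely spread but all lay below all Ctrl-AM samples. Acadm, the dehydrogenase for medium chains, measured 51.5, 51.2 and 49.9 FPKM in Ctrl-AM against 38.5, 41.1 and 39.2 in Tumor-AM (-0.35 ± 0.08, limma adjusted p = 0.0235). Eci2, an isomerase that moves double bonds into the position beta-oxidation needs, measured 79.8, 78.8 and 80.5 FPKM in Ctrl-AM against 64.4, 64.5 and 61.6 in Tumor-AM (-0.32 ± 0.07, limma adjusted p = 0.02). For these last 2 genes the differences were small and the samples of each group close together.

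The remaining 20 tested oxidation genes did not pass the test in Tumor-AM. They included the whole carnitine shuttle, with differences of -0.03 for Cpt1a, 0.06 for Cpt2 and -0.06 for Slc25a20, both subunits of the trifunctional protein (-0.04 for Hadha and -0.08 for Hadhb) and the electron transfer genes Etfa, Etfb and Etfdh (-0.08, -0.09 and 0.00). The 95% intervals of these 8 genes all lay between -0.33 and 0.27. Ech1, an auxiliary isomerase and the most abundant member in Ctrl-AM at 339, 314 and 329.6 FPKM, measured 291, 282 and 287 in Tumor-AM, without overlap but short of the threshold (-0.19 ± 0.07, limma adjusted p = 0.126).

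**Figure D2:**
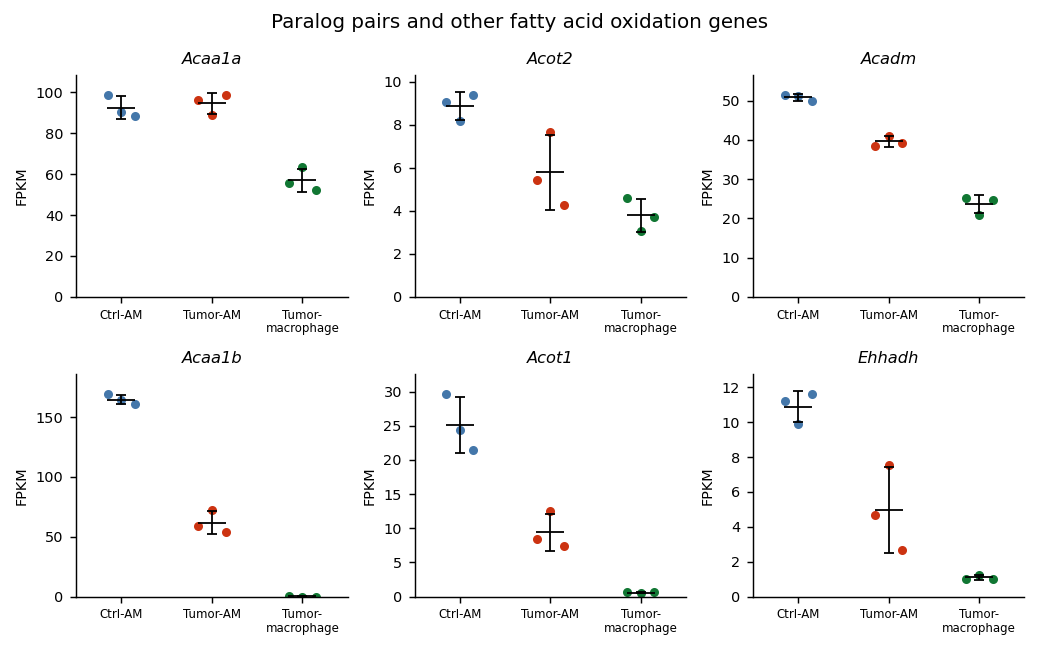
FPKM (linear axes from 0) of Acaa1a and Acaa1b, Acot2 and Acot1, Acadm and Ehhadh in each sample of the 3 populations, with bars for the mean and SD of 3 samples. Acaa1b fell from 161 to 169 in Ctrl-AM to 53.9 to 72.7 in Tumor-AM, where Acaa1a stayed between 88.8 and 98.7, and Acaa1b and Acot1 were at or near 0 in Tumor-macrophage.

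Other genes of these pathways, listed beside the members, were called in both directions between the AM groups, where 7.11% of all genes were higher and 3.18% lower. Of 27 tested regulators, 2 were higher and 2 lower in Tumor-AM. Insig1, which retains the SREBP activators of lipid synthesis in the endoplasmic reticulum and is itself a target of theirs, measured 35.4, 32.2 and 35.2 FPKM in Ctrl-AM against 62.3, 61.1 and 53.3 in Tumor-AM (0.76, limma adjusted p = 4.69e-04). Srebf2, the SREBP of sterol synthesis, measured 22.4, 19.8 and 19.9 FPKM in Ctrl-AM against 29, 30.9 and 29.6 in Tumor-AM (0.51, limma adjusted p = 0.00337). Neither gene overlapped between the groups, while Srebf1, the SREBP more tied to fatty acid synthesis, stood at 15.2 to 18 FPKM in Ctrl-AM against 17.7 to 18 in Tumor-AM (limma adjusted p = 0.605).

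Pparg, the gene of PPAR-gamma, measured 185, 206 and 216 FPKM in Ctrl-AM against 144, 135 and 140.3 in Tumor-AM (-0.53, limma adjusted p = 0.00455). Pdk4, a kinase that restrains glucose oxidation and a known target of the PPAR receptors, measured 13.3, 10.7 and 11.3 FPKM in Ctrl-AM against 5.3, 9.95 and 5.29 in Tumor-AM (-0.75, limma adjusted p = 0.0405). Both were lower in every Tumor-AM sample. Among 16 tested peroxisomal genes, Abcd2, a transporter of very long chains, and Hsd17b4, the other bifunctional enzyme, were lower (-0.58 and -0.40, limma adjusted p = 0.0498 and 0.00541) and 0 were higher (2 at an unadjusted p under 0.05). Among 13 tested further synthesis genes, Mid1ip1, an activator of acetyl-CoA carboxylase, and Tecr, the last enzyme of the elongation cycle, were higher (0.63 and 0.36) and Hacd2, a dehydratase of that cycle, was lower (-0.37). Of 20 other mitochondrial genes, Ivd and Oxct1 were higher (0.59 and 0.35). Of 11 genes of NADPH supply, H6pd, the glucose-6-phosphate dehydrogenase of the endoplasmic reticulum, was higher. By limma, 0 of 11 genes of fatty acid uptake and activation passed in either direction, although 4 were higher at an unadjusted p under 0.05. At that cut-off 1616 of all 10686 genes tested were higher.

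The second comparison set TAMs against AMs of tumor-bearing lungs. Of the 25 tested oxidation genes, 22 were lower in Tumor-macrophage and 0 were higher, where 24.4% of all genes tested were lower and 24.2% higher. The same count, 22 lower and 0 higher, held against Ctrl-AM, where 27.1% of all genes were lower and 27.7% higher. The median difference over the tested oxidation genes was -0.77 against Tumor-AM and -1.07 against Ctrl-AM, with 0.00 and -0.01 over all genes, and their summed level was 789 to 831 FPKM in Tumor-macrophage. Both comparisons use the same Tumor-macrophage samples. Acaa1b and Acot1 passed the filter only through AM samples, so in both counts they could be called only as lower. At an unadjusted p under 0.05, 0 oxidation genes were higher than in Tumor-AM and 1, Acadl, was higher than in Ctrl-AM. Of all 10686 genes tested, 2902 were higher than in Tumor-AM and 3220 higher than in Ctrl-AM at that cut-off. Leaving out single samples kept 21 or 22 genes lower than Tumor-AM and 22 lower than Ctrl-AM. It also brought genes past the threshold as higher, against Tumor-AM Acadl and Decr1 without Tumor-AM 2 and Decr1 without Tumor-macrophage 2, and against Ctrl-AM Acadl without Tumor-AM 2, Tumor-AM 3 or Tumor-macrophage 2.

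**Figure D3:**
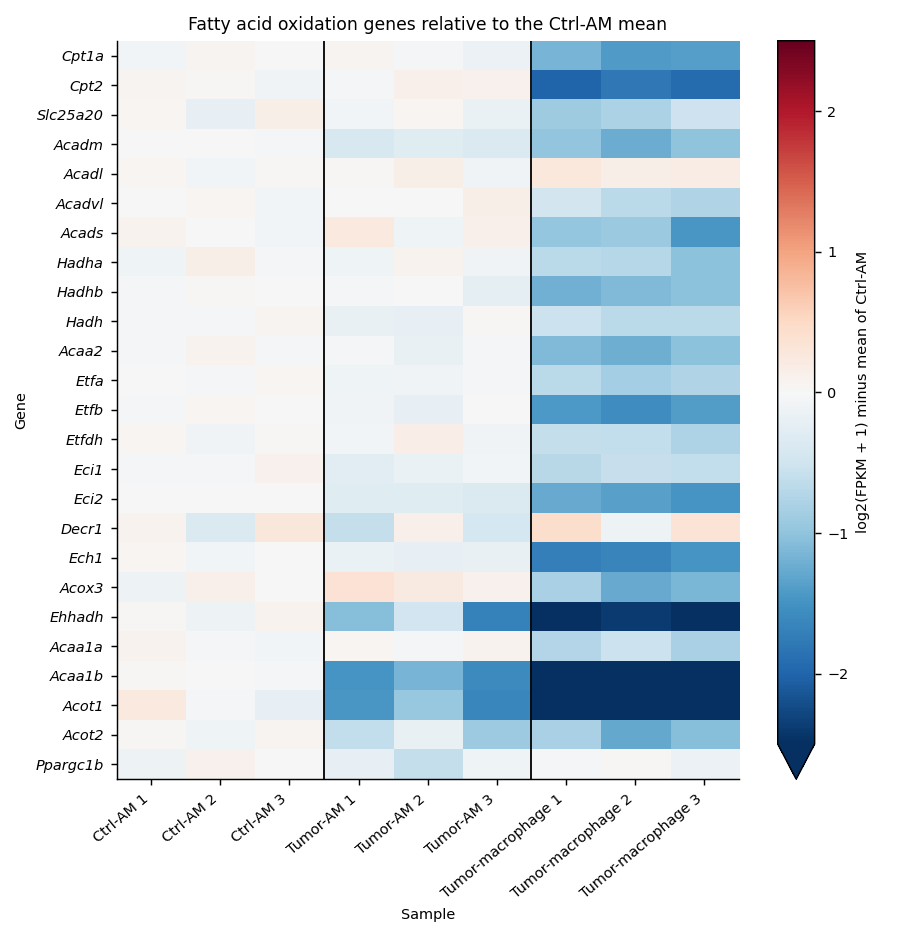
Level of the 25 tested oxidation genes (rows) in each sample (columns), as log2(FPKM + 1) minus the gene's mean over Ctrl-AM, with blue below and red above that mean and the scale ending at -2.5. The Tumor-macrophage samples were lower in nearly all rows, apart from Acadl, Decr1 and Ppargc1b, and the Tumor-AM samples were visibly lower in Acaa1b, Acot1 and Ehhadh.

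All 3 tested genes of the carnitine shuttle were lower. Cpt1a, which forms the carnitine ester at the outer mitochondrial membrane and is the controlled step of the pathway, measured 77.4, 72.7 and 66.8 FPKM in Tumor-AM against 32.3, 27 and 27.6 in Tumor-macrophage, 2.5-fold lower (-1.29 ± 0.09, limma adjusted p = 7.05e-07). Cpt2, which reverses that step on the inner membrane, measured 21.4, 23.8 and 23.5 FPKM in Tumor-AM against 4.74, 5.63 and 5.01 in Tumor-macrophage, 4.47-fold lower (-1.97 ± 0.09, limma adjusted p = 4.41e-08). Slc25a20, the translocase between them, was 1.62-fold lower (-0.68 ± 0.12, limma adjusted p = 8.26e-04). The fitted differences of the shuttle genes were thus of unlike size, and only Cpt2 and Cpt1a were compared with each other. The ratio of Cpt2 to Cpt1a was 0.277 to 0.352 in Tumor-AM and 0.147 to 0.209 in Tumor-macrophage, a log2 difference of -0.84 (exact permutation p = 0.1, the smallest possible, and adjusted p = 0.133).

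Of the acyl-CoA dehydrogenases, which open each round of beta-oxidation, 3 of 4 were lower in Tumor-macrophage. Acads, for short chains, measured 24.3, 18.8 and 22.2 FPKM in Tumor-AM against 9.89, 10.2 and 6.7 in Tumor-macrophage (-1.21 ± 0.15, limma adjusted p = 6.05e-05). Acadm and Acadvl, for medium and very long chains, were lower by similar amounts (-0.73 ± 0.08 and -0.69 ± 0.09). Acadl, for long chains, did not share this and stood at 50.4, 54.9 and 46.9 FPKM in Tumor-AM against 59.7, 54.9 and 56.7 in Tumor-macrophage (0.17, 95% interval from -0.00 to 0.34, limma adjusted p = 0.0969).

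The 4 members that act in the later steps of the mitochondrial spiral were lower. Hadha and Hadhb, the subunits of the trifunctional protein, were 1.74-fold and 2.06-fold lower, with Hadhb at 136, 139 and 118 FPKM in Tumor-AM against 59.9, 63.5 and 67.6 in Tumor-macrophage (-1.03 ± 0.08, limma adjusted p = 1.52e-06). Acaa2, the mitochondrial thiolase, measured 106, 96 and 106 FPKM in Tumor-AM against 50.1, 46.1 and 53 in Tumor-macrophage (-1.03 ± 0.08, limma adjusted p = 1.34e-06), and Hadh, the dehydrogenase for shorter chains, was 1.44-fold lower. Hadhb shares 57.2% of its 75-base stretches with other annotated sequences, chiefly Gm13910, so its level may include their reads. None of these 4 genes overlapped between Tumor-AM and Tumor-macrophage, while all 4 overlapped between Ctrl-AM and Tumor-AM. How many of all genes lay apart in this way was not counted.

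Hadha and Hadhb are divergent neighbours that lay lower together, so the promoter of Hadhb is shown, at chr5:30155003-30155302 on the plus strand in the same build, with the same meaning of the capitals. The window of Hadha, on the opposite strand, overlaps it by 228 bases.
Hadhb: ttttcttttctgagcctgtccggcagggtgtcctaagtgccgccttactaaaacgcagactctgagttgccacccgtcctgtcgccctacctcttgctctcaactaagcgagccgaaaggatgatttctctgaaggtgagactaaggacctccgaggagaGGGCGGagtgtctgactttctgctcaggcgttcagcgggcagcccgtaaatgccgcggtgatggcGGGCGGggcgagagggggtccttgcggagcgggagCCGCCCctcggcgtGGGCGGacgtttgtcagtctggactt
This window holds 4 GC boxes and 0 CCAAT matches. GC boxes occurred in 19 of the 24 oxidation promoters found in the RefSeq table (79.2%), in 6 of 12 synthesis promoters and in 35.7% of all 32851 promoters. CCAAT occurred in 12 oxidation promoters (50%), 7 synthesis promoters (58.3%) and 37.4% of all. AGGTCA, the half-site of nuclear receptors such as PPARs, occurred in 3 oxidation promoters (12.5%), 4 synthesis promoters (33.3%) and 16.3% of all. CACCCCAC, a core of sterol regulatory elements, occurred in 0 promoters of either arm and 2.87% of all, CACGTG, the E-box, in 1 synthesis promoter and 7.15% of all, and GCGCATGC, a core of NRF1 sites, in 4 oxidation promoters (16.7%), 0 synthesis promoters and 2.71% of all. Both strands were searched, 34 of the 41 members had a window, and windows that hold no match say only that the letters are absent there.

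The electron transfer flavoprotein, which takes electrons from the dehydrogenases to the respiratory chain, was lower in both subunits and in its oxidoreductase. Etfb measured 278, 259 and 301 FPKM in Tumor-AM against 109, 101 and 112 in Tumor-macrophage, 2.61-fold lower (-1.37 ± 0.07, limma adjusted p = 1.02e-07). Etfa and Etfdh were each 1.61-fold lower. Etfb shares 66.3% of its 75-base stretches with Gm45233, and the division of these reads is unknown.

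Among the auxiliary enzymes for unsaturated chains, Ech1 measured 291, 282 and 287 FPKM in Tumor-AM against 99.8, 103 and 117 in Tumor-macrophage, 2.69-fold lower (-1.42 ± 0.07, limma adjusted p = 7.21e-08). Eci2 was 2.08-fold and Eci1 1.38-fold lower. Decr1, a reductase for chains with more than a single double bond, stood at 3.74, 6.84 and 4.32 FPKM in Tumor-AM against 8.68, 5.53 and 8.09 in Tumor-macrophage, overlapping (0.51 ± 0.23, limma adjusted p = 0.092).

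The 4 peroxisomal members were all lower, and Acaa1b was at or near 0. Acaa1b, at 53.9 to 72.7 FPKM in Tumor-AM, was listed at 0 in 2 Tumor-macrophage samples and at 0.184 FPKM in the other, so no fold is given, and its fitted difference of -5.88 depends on the pseudocount. Ehhadh measured 1.03, 1.25 and 1.03 FPKM in Tumor-macrophage, 4.51-fold below Tumor-AM (-1.42 ± 0.24, limma adjusted p = 6.62e-04). Acox3, an oxidase that starts peroxisomal oxidation of branched chains, measured 72, 65.8 and 60.5 FPKM in Tumor-AM against 31.6, 22.8 and 25 in Tumor-macrophage (-1.30 ± 0.12, limma adjusted p = 7.37e-06). Acaa1a was 1.66-fold lower, the smallest difference of the 4 (-0.72 ± 0.09, limma adjusted p = 4.72e-05).

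The thioesterases parted further. In Tumor-macrophage, Acot1 was 16.5-fold lower than in Tumor-AM (-2.70 ± 0.18, limma adjusted p = 4.53e-07), and 44.1-fold lower than in Ctrl-AM. Acot2 measured 4.6, 3.08 and 3.7 FPKM in Tumor-macrophage, overlapping Tumor-AM, with an adjusted p by limma of 0.0499 that passed in 5 of 16 alternatives. The ratio of Acot2 to Acot1 was 5.94 to 7.69 in Tumor-macrophage, a log2 difference of 3.43 from Tumor-AM (exact permutation p = 0.1 and adjusted p = 0.133), or of 2.22 after adding 1 FPKM to each value.

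Of the regulators among the members, Ppargc1b, a coactivator of mitochondrial genes, was measured at low level in all groups and did not pass any comparison (0.671 to 1.74 FPKM over the 9 samples). Ppara, the PPAR of liver fatty acid oxidation, was at 0 in 7 of 9 samples and at most 0.0465 FPKM. Ppard stood between 0.203 and 0.878 FPKM and overlapped in all comparisons. Acacb and Cpt1b, the muscle-type forms of the carboxylase and of the carnitine transferase, were at most 0.0759 and 0.44 FPKM, whereas their widely expressed counterparts Acaca and Cpt1a were present in all 3 populations. Me1, the cytosolic malic enzyme, stayed below 1 FPKM in all samples but Tumor-AM 2 and 3, at 4.79 and 1.6 FPKM.

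In the synthesis arm, Tumor-macrophage had 7 of 11 genes lower than Tumor-AM and 1 higher, and 4 lower and 2 higher than Ctrl-AM. Acaca and Elovl6 passed the filter only through AM samples, so they could be called only as lower. Fads2, below 1 FPKM in every Ctrl-AM sample, could be called against Ctrl-AM only as higher. Of all genes tested, 24.4% were lower and 24.2% higher than in Tumor-AM, and 27.1% were lower and 27.7% higher than in Ctrl-AM. The median differences over the synthesis genes were -0.42 and -0.11, and their summed level was 243 to 256 FPKM. Acly measured 34.1, 35.2 and 33.1 FPKM in Tumor-macrophage, 2.08-fold below Tumor-AM (-1.03 ± 0.08, limma adjusted p = 1.85e-06) and also below Ctrl-AM (-0.67 ± 0.08, limma adjusted p = 4.63e-05). Fasn measured 3.53, 2.87 and 2.65 FPKM, below Tumor-AM (-0.64 ± 0.13, limma adjusted p = 0.00233) but overlapping Ctrl-AM (-0.09, 95% interval from -0.38 to 0.21). Scd2 ran likewise, at 6.37, 6.96 and 6.22 FPKM (limma adjusted p = 0.0317 against Tumor-AM and 0.568 against Ctrl-AM), but its call against Tumor-AM was lost without Tumor-AM 1 or 2 or Tumor-macrophage 1 or 3 (limma adjusted p from 0.0726 to 0.118). Fasn and Acly were highest in Tumor-AM, and Acly in Tumor-macrophage lay below both AM groups.

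The elongases were lower in Tumor-macrophage. Elovl5 measured 35.1, 34.7 and 40.8 FPKM, 1.93-fold below Tumor-AM (-0.93 ± 0.09, limma adjusted p = 7.20e-06), and Elovl6 0.532, 0.594 and 0.642 FPKM, 3.8-fold below (-1.01 ± 0.15, limma adjusted p = 1.87e-04). Elovl1, at 126, 132 and 118 FPKM, was 1.28-fold below Tumor-AM and overlapped Ctrl-AM. The ratio of Elovl5 to Elovl6, 24.8 to 41.6 in Tumor-AM and 58.4 to 66.1 in Tumor-macrophage, was higher by 0.95 on the log2 scale (exact permutation p = 0.1 and adjusted p = 0.133), but by 0.08 after adding 1 FPKM to each value.

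Fads1 was higher in Tumor-macrophage. It was 5.8-fold higher in Tumor-macrophage than in Tumor-AM (2.36 ± 0.16, limma adjusted p = 5.46e-07) and 15-fold higher than in Ctrl-AM (3.47 ± 0.16, limma adjusted p = 2.21e-08). Fads2 was 5.84-fold higher than in Ctrl-AM (1.18 ± 0.18, limma adjusted p = 2.56e-04), and its difference from Tumor-AM missed the threshold (0.48 ± 0.18, limma adjusted p = 0.0508). Fads1 stood at 13.7 to 25.4 times the level of Fads2 in the Tumor-macrophage samples, 4.89 to 5.78 times in the Tumor-AM samples and 2.8 to 57.6 times in the Ctrl-AM samples, where Fads2 stayed below 1 FPKM. This ratio was chosen after its values were seen and not tested. Fads1 was the only tested member called higher in all 3 comparisons.

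**Figure D4:**
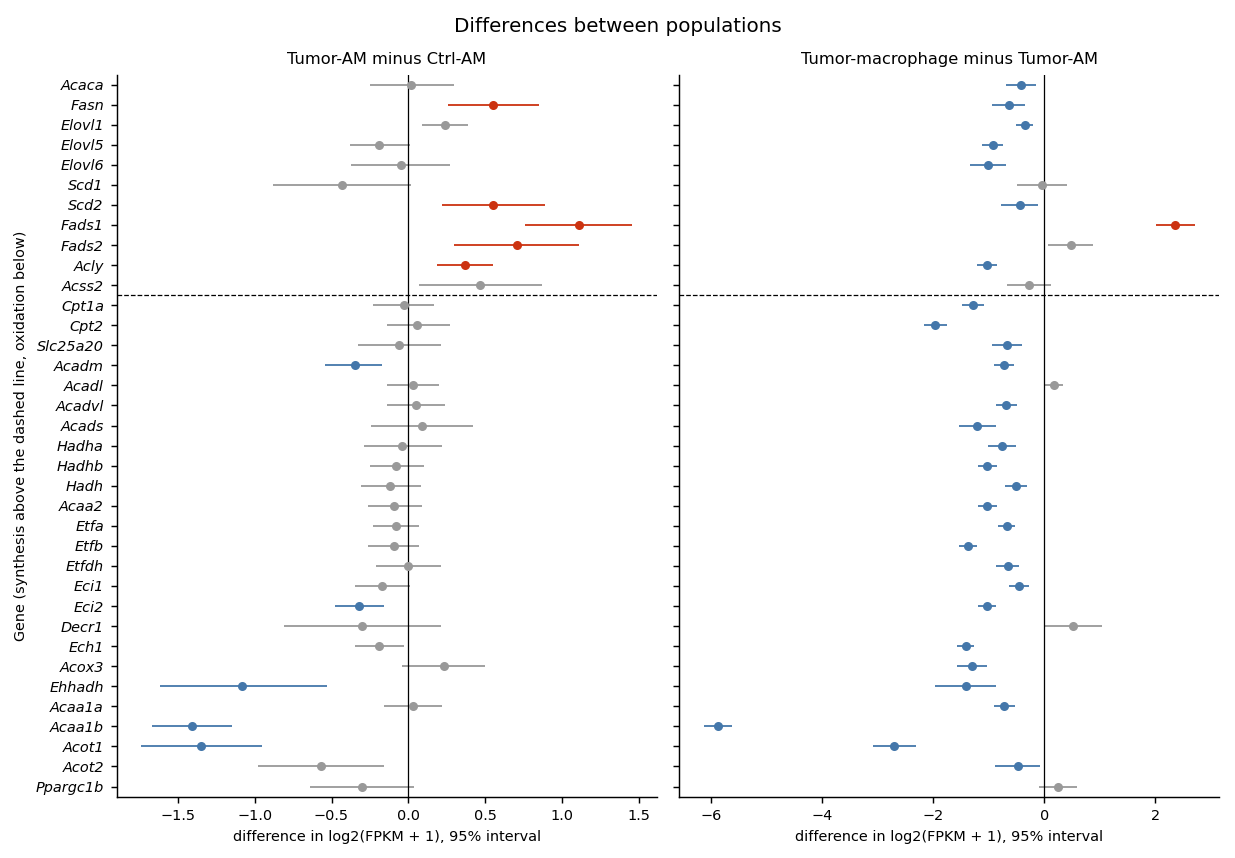
Difference in log2(FPKM + 1) with its 95% interval from limma for the 36 tested genes, Tumor-AM minus Ctrl-AM on the left and Tumor-macrophage minus Tumor-AM on the right (the horizontal scales differ), in red for genes called higher, blue for lower and grey for neither. Synthesis genes, above the dashed line, include 5 red points on the left and 1 on the right, Fads1, and oxidation genes, below it, include 5 blue points on the left and 22 on the right.

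Genes of the wider lists were compared between Tumor-macrophage and Tumor-AM in the same way. In this comparison 24.4% of all genes tested were lower and 24.2% higher. Of 27 tested regulators, 15 were lower in Tumor-macrophage and 1, Tfe3, was higher. Pparg, which is also on the list of AM markers, measured 12.8, 12.1 and 10.5 FPKM in Tumor-macrophage, 11.9-fold below Tumor-AM (-3.46, limma adjusted p = 4.60e-10). Angptl4, a lipase inhibitor induced by PPARs, measured 205, 185 and 205 FPKM in Tumor-AM against 9.27, 7.74 and 8.84 in Tumor-macrophage (-4.37), and Lpin1, a phosphatidate phosphatase and coactivator, 91.6, 76.8 and 75.2 and 6.94, 5.35 and 6.8 (-3.48). Rxra, a partner receptor of the PPARs, was 2.5-fold lower. Pparg, Angptl4 and Lpin1 were abundant in both AM groups and low in TAMs.

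Of 16 tested peroxisomal genes, 8 were lower and 2 higher in Tumor-macrophage relative to Tumor-AM, where 24.4% of all genes were lower and 24.2% higher. Abcd2 was 8.32-fold lower (-2.68, limma adjusted p = 2.64e-07). Of 11 genes of NADPH supply, 5 were lower, among them Me2 and Idh1 (-1.79 and -1.71), and Mthfd2, a folate enzyme of mitochondria, was higher (1.00). Other mitochondrial genes were mixed, with 6 of 20 lower and 3 higher. Mlycd, which removes malonyl-CoA, was among the lower (-0.97), and Oxct1, which activates ketone bodies for oxidation, rose from 26.3, 23.9 and 26.8 FPKM in Tumor-AM to 64.6, 64.9 and 61.4 (1.28, limma adjusted p = 3.23e-07).

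Fatty acid uptake and activation was mixed as well, with 4 of 11 genes higher and 4 lower. Slc27a1, a fatty acid transport protein, measured 19.3, 16.3 and 18.6 FPKM in Tumor-AM against 45.8, 52.6 and 47.1 in Tumor-macrophage (1.38, limma adjusted p = 4.31e-06), and Acsl1, a long-chain acyl-CoA synthetase, was higher too (0.41). Dbi, the acyl-CoA binding protein, was 2.18-fold lower (-1.12). Among 13 further synthesis genes, 5 were lower, with Slc25a1, the citrate carrier that exports carbon for synthesis, at 74.1, 82.9 and 64.8 FPKM in Tumor-AM against 41.5, 48.5 and 39.6 in Tumor-macrophage (-0.76, limma adjusted p = 1.94e-04), and 2 were higher, Fads3 and Hacd2. Against Ctrl-AM the calls, lower and higher, were 15 and 3 for regulators, 7 and 2 for peroxisomal genes, 6 and 2 for NADPH supply, 6 and 5 for other mitochondrial genes, 4 and 5 for uptake and activation and 6 and 3 for further synthesis genes. There 27.1% of all genes tested were lower and 27.7% higher.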

How the data were processed

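RNA from 9 sorted macrophage samples, 3 in each of 3 groups named by their titles, was made into cDNA with SMART-Seq HT and Nextera kits and sequenced as single reads of 75 bases. The deposited files hold FPKM per gene, which the authors made from reads aligned to mm10. The submitters' processing notes name TopHat2 2.1.1, Bowtie2 and Cuffdiff 2.2.1, whereas the study's methods name Cufflinks for the FPKM, so which of them scaled the libraries is unclear. The annotation and how reads matching several genes were counted are not given in the sources used here.

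Values were analysed as log2(FPKM + 1), which makes changes of low genes look smaller. Genes that reached 1 FPKM in 3 or more samples entered a limma trend fit of group means over all 9 samples (limma 3.58.1, R 4.3.3). The tests of this fit were two-sided, with Benjamini-Hochberg adjustment over all genes tested and a threshold of 0.05. Genes that reached 1 FPKM only in the groups where they were high could enter a count in that direction alone. Ratios of 2 genes were compared by two-sided exact permutation tests over samples. Acaca to Acacb could not be tested because Acacb was at 0 in most samples. The fit was tested on simulated data.

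Depth was estimated from low values, since FPKM of whole reads are multiples of what 1 read is worth. Of such ratios, 74.7% fell on whole reads within 0.4%, against 1.3% on a displaced grid. This precision covers counting error only.

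Members, lists and tests were chosen with earlier results of these data known. Of the 6 lists beside the members, at most 4 genes per comparison were named, those past the threshold with the largest difference whose higher group averaged 10 FPKM or more. Srebf1, H6pd, Tfe3 and Fads3 were named outside this rule after their values were seen, and some genes that meet it are not reported here. Shared 75-base stretches were counted in GENCODE vM21 transcripts of GRCm38. Results were recomputed with a pseudocount of 0.1, without the filter, as TPM, with median-ratio scaling or quantile normalization, in a fit of the 2 compared groups, with a block for the replicate number and leaving out each of the 9 samples.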

Additional observations from a re-analysis of the deposited data

How the results depend on the processing

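Over all alternatives 21 or 22 oxidation genes of Tumor-macrophage were below Tumor-AM and 22 below Ctrl-AM, while up to 2 and up to 1 were called higher. The synthesis counts of 8 and 6 stayed between 6 and 9 and between 5 and 8. The counts between Tumor-AM and Ctrl-AM depended on the processing. The 5 synthesis genes became 2 without a filter, 3 after rescaling to TPM and 3 after quantile normalization, and between 1 and 6 when single samples were left out. The 5 oxidation genes became 8 after rescaling to TPM and between 2 and 6 when single samples were left out. Among all genes, 760 were higher and 340 lower in Tumor-AM as deposited, but 475 and 824 after rescaling to TPM and 607 and 446 after quantile normalization. Between Tumor-macrophage and Ctrl-AM, 2960 and 2900 became 2130 and 4409 after rescaling to TPM, which moved the median of all genes to -0.22.

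With the replicate number as a block, 3 synthesis genes passed in Tumor-AM against Ctrl-AM, and the other counts stayed within 1 gene. Samples of the same number did not deviate together (correlations from -0.062 to 0.159), so the numbers were not taken to pair samples.

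The ratio of Elovl5 to Elovl6 changed direction with 1 FPKM added to both genes, to -0.05 between Tumor-macrophage and Ctrl-AM, where the deposited values gave 0.84. Between Tumor-AM and Ctrl-AM it ran from -0.29 to 0.08 when single samples were left out, with 0.08 without Tumor-AM 1. Why the ratio moved without Tumor-AM 1 was not tested. Elovl6 averaged 0.589 FPKM in Tumor-macrophage and 2.33 in Ctrl-AM, and Elovl5 36.9 and 81. Adding 1 FPKM therefore shrinks the difference of Elovl6 far more than that of Elovl5. Elovl6 rested on an estimated 32 to 44 reads per Tumor-macrophage sample.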
